A study of Mus musculus with 7 samples.

Results

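The TNF ligand and receptor superfamilies were followed in retinal pigment epithelium (RPE) of aged mice with and without the autophagy protein LC3b. Members were the protein-coding genes whose symbol begins with *Tnfrsf* or *Tnfsf*, together with *Tnf*, *Lta*, *Ltb*, *Ltbr*, *Fas*, *Fasl*, *Cd40*, *Cd40lg*, *Cd27* and *Ngfr*. The rule gave 42 genes of the 52740 identifiers in the count table, of which 17 encode ligands, 6 encode receptors with a death domain, 15 encode receptors that bind TRAF adaptors and 4 encode decoy or related receptors that do not signal by those routes. RNA sequencing was compared between 4 wildtype (WT) C57BL6/J mice (F1, F2, F3 and M1, that is 3 females and 1 male) and 3 *LC3b*-/- mice (F1, F3 and M, that is 2 females and 1 male), all 24 months of age and with no treatment named, with 1 library per mouse. The knockout strain carries a targeted *Map1lc3b* allele on a mixed B6;129P2 background, lacks LC3b in every tissue, and was purchased like the WT strain, with no statement that the mice were littermates, so strain background and genotype cannot be told apart. RPE was released from eyecups with hyaluronidase and trypsin, and stranded libraries were made from polyadenylated RNA.

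Ligands of the TNF superfamily are mostly membrane proteins that act as trimers, on the cell surface or after they are shed by proteases. Death domain receptors can recruit FADD and caspase-8 or, through TRADD and RIPK1, lead to NF-kB activation. Receptors without a death domain bind TRAF proteins directly, and decoy receptors bind a ligand without passing on the signal. In RPE, TNF is known as a cytokine to which the cells respond with chemokine and adhesion gene expression, and Fas ligand is known as part of the immune privilege of the eye.

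Deposited counts summed to between 24495952 and 35616134 per library. *Map1lc3b* had 2778 to 4444 counts in WT and 168 to 332 in *LC3b*-/- libraries, which fits the labels. The RPE label was checked with 12 RPE genes, all of which were detected. Their summed level was 31465 to 49439 CPM (counts scaled to library size) in WT and 13952 to 29410 CPM in *LC3b*-/- libraries, without overlap, and 11 of 12 were lower. Markers of ocular surface epithelium, mainly keratins, summed to 9.14 to 2418 CPM in WT and 3308 to 23506 CPM in *LC3b*-/- libraries, with 10 of 10 tested genes higher, the largest sum in *LC3b*-/- F1, and *Sprr1b* at 0 in all libraries. In *LC3b*-/- F1 the ocular surface sum (23506 CPM) exceeded the RPE marker sum (13952 CPM). Endothelial markers summed to 379 to 1175 CPM in WT and 1345 to 1597 CPM in *LC3b*-/- (8 of 8 higher), and mast cell markers to 2.62 to 12.9 and 18.1 to 113 CPM (4 of 4 tested higher). B and plasma cell markers summed to 2.54 to 8.81 CPM in WT and 9.30 to 29.3 CPM in *LC3b*-/- libraries, with 2 of 5 tested genes higher (median log2 -0.08), and *Jchain* made up most of the higher sums (1.35 to 5.21 CPM in WT and 7.12 to 26.0 CPM in *LC3b*-/-). Sums for macrophages and microglia (396 to 538 and 370 to 539 CPM), T and NK cells (5.28 to 21.3 and 11.4 to 23.5 CPM) and photoreceptors (21.4 to 17288 and 37.3 to 5899 CPM) overlapped between the groups. Sums were lower in *LC3b*-/- libraries, without overlap, for Schwann cells and melanocytes (273 to 948 and 164 to 206 CPM), Muller glia (4546 to 5929 and 3091 to 4331 CPM) and lens (10.8 to 12.7 and 4.91 to 9.81 CPM). Dendritic cell (5.31 to 15.0 and 13.3 to 26.1 CPM, 5 of 5 tested genes higher), neutrophil (3.41 to 10.1 and 4.64 to 10.9 CPM) and fibroblast sums (253 to 1069 and 614 to 1463 CPM) overlapped. The part that these other cells have in the levels given here was not tested, and in bulk RNA fewer cells of a type and less RNA per cell cannot be told apart.

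**Figure D1:**
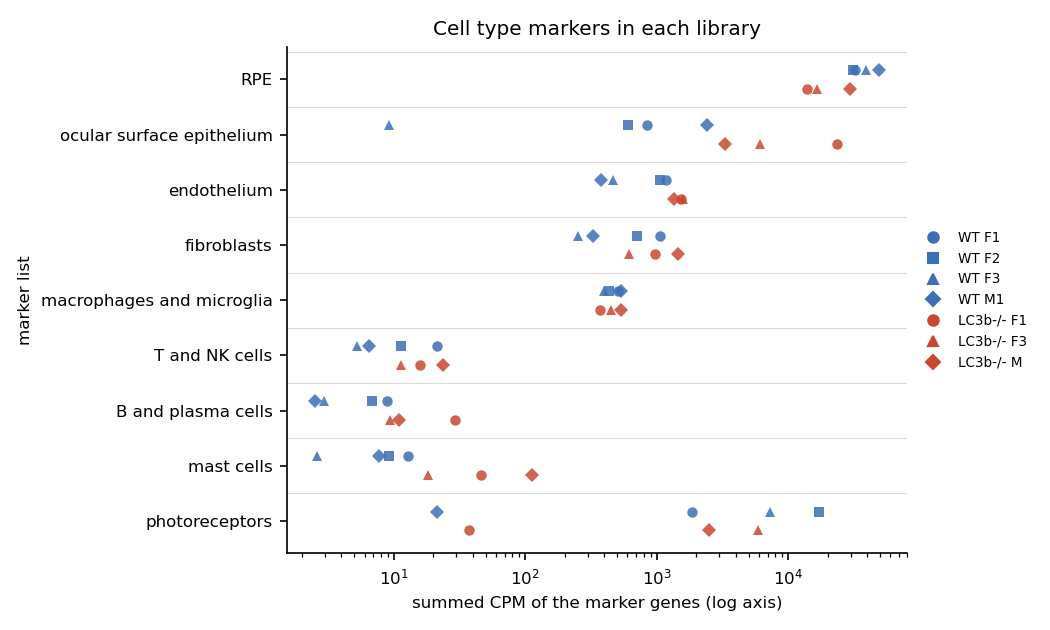
Summed CPM (log axis) of the marker genes of the cell types, 1 symbol per library, WT in blue and *LC3b*-/- in red. RPE markers lie lower in the 3 *LC3b*-/- libraries (13952 to 29410 CPM) than in the 4 WT libraries (31465 to 49439 CPM), and ocular surface, endothelial and mast cell markers lie higher, as does the B and plasma cell sum, of which *Jchain* is the largest share, while macrophage and microglia markers overlap.

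The sequences of 4 genes are shown: *Tnfrsf10b* and *Tnfrsf12a*, the receptors with the smallest p-values, and *Tnfrsf23* and *Tnfrsf26*, neighbouring genes with few counts that DESeq2 called and edgeR did not and that passed the filter on low counts through the WT libraries alone. Each is the 250 bases before the start of the canonical transcript, 5′ to 3′ on the strand of the gene, from GRCm39. The windows are chr14:70004667-70004916 on the plus strand for *Tnfrsf10b*, chr17:23896464-23896713 on the minus strand for *Tnfrsf12a*, chr7:143239610-143239859 on the minus strand for *Tnfrsf23* and chr7:143181691-143181940 on the minus strand for *Tnfrsf26*. Capitals mark matches on either strand to a GC box (GGGCGG) or TATA box (TATAAA).
Tnfrsf10b: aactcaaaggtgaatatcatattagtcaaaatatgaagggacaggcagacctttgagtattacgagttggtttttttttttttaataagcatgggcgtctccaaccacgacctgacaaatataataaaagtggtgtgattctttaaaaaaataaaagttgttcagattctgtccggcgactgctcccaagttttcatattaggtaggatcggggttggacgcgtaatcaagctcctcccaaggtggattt
Tnfrsf12a: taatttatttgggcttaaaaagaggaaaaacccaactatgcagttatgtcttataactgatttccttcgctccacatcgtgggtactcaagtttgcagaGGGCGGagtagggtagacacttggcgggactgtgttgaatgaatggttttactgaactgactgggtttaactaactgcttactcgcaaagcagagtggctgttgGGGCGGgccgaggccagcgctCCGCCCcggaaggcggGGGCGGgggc
Tnfrsf23: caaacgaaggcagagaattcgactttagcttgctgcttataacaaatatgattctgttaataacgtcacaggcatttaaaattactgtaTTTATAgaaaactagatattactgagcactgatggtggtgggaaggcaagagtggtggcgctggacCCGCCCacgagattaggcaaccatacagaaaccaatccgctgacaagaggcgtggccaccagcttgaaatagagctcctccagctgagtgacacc
Tnfrsf26: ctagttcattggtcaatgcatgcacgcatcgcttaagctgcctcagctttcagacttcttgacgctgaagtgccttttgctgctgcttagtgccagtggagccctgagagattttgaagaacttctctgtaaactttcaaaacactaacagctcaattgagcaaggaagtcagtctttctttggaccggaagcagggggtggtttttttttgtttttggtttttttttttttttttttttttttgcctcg

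The *Tnfrsf12a* window held 4 GC boxes and had a GC content of 52%, whereas the *Tnfrsf10b* window (38.8% GC) and the *Tnfrsf26* window (41.6% GC) held none of the 7 motifs searched. The *Tnfrsf23* window (45.6% GC) held 1 GC box and 1 TATA box. The background was the 18025 promoters of the same length of protein-coding genes with at least 1 count in these libraries. Of these, 42.5% held a GC box, against 18 of the 42 members, and 9.24% held a TATA box, against 9 members, *Tnf* among them. The NF-kB consensus site was present in 4.55% of the background promoters and in those of 4 members (*Cd40*, *Tnfrsf8*, *Tnfrsf9* and *Tnfsf15*). The AP-1 site (TGANTCA) was present in 5.47% and in 5 members, among them *Fas*. The p53 decamer was found in 6.62% of promoters and 4 members, the serum response element core in 1.25% and 1 member, and the C/EBP-ATF element (TGATGNAAT) in 0.566% and 0 members. GC boxes can overlap each other, and both strands were searched. Such matches are descriptions of letters in these windows and not of binding.

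Levels were compared between genes as CPM per kilobase of exon and ordered by the mean over all 7 libraries. *Tnfrsf1a*, the main receptor of TNF, was the most abundant member, with a mean level of 27.1 CPM per kilobase in WT and 40.4 in *LC3b*-/- RPE. *Ltbr*, the lymphotoxin beta receptor, followed with 23.8 and 24.2, and *Tnfsf12*, the ligand TWEAK, with 13.5 and 14.8. The next were *Tnfrsf12a*, the TWEAK receptor (4.11 and 17.8, rank 4 over all libraries and 8 in WT alone), *Tnfsf13*, the ligand APRIL (8.96 and 11.3), and *Tnfrsf21*, a death receptor studied mainly in neurons (6.11 and 12.1). *Tnfsfm13*, a read-through of *Tnfsf12* and *Tnfsf13*, *Tnfrsf11b*, the secreted decoy of RANK ligand, *Fas*, and *Tnfrsf1b*, the second receptor of TNF, completed the first 10, with WT levels of 6.26, 5.20, 3.57 and 3.94 CPM per kilobase. In WT RPE, the libraries of *Tnfrsf1a* (77.2 to 98.9 CPM) and *Ltbr* (47.3 to 68.1 CPM) varied little, while *Tnfsf12* ranged from 5.46 CPM in M1 to 48.5 CPM in F2. All members together took 317 to 405 CPM in WT and 487 to 592 CPM in *LC3b*-/- libraries. The receptors accounted for most of that sum, with 260 to 314 CPM in WT and 375 to 481 CPM in *LC3b*-/- libraries, which did not overlap. The ligands summed to 39.3 to 122 CPM in WT and to 97.0 to 113 CPM in *LC3b*-/- libraries, which overlapped.

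**Figure D2:**
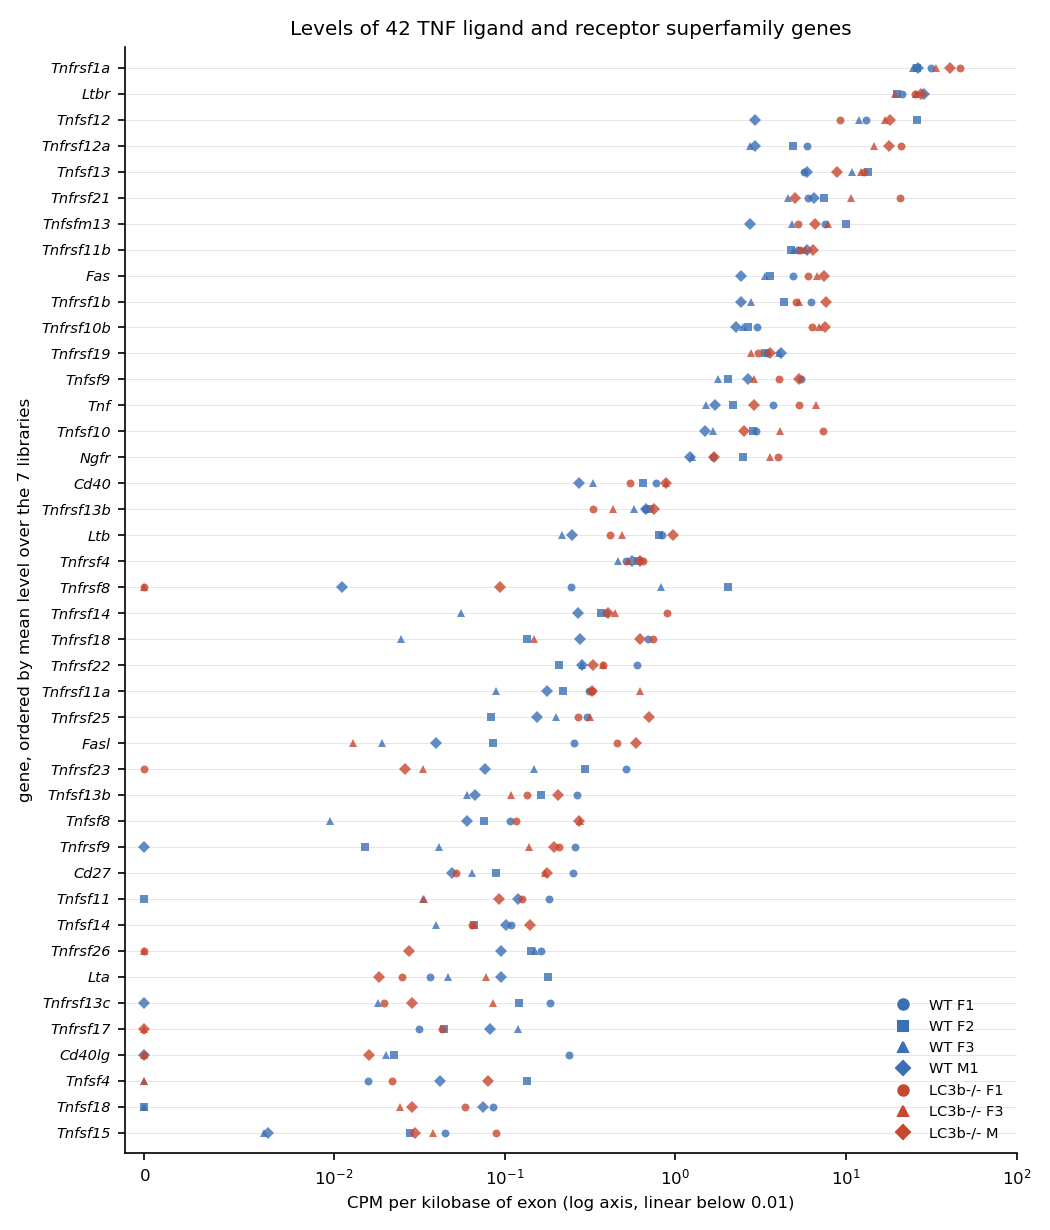
CPM per kilobase of exon (log axis, linear below 0.01) of the 42 genes in each of the 7 libraries, ordered by mean level, with WT in blue and *LC3b*-/- in red. *Tnfrsf1a* and *Ltbr* lead the order, and the genes in the lowest rows include most of the 9 that had too few counts to test.

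The filter on low counts, which asked for about 0.374 CPM in at least 3 libraries, kept 33 members among 16990 genes. The other 9 were *Lta*, *Cd40lg*, *Tnfsf4*, *Tnfsf11*, *Tnfsf14*, *Tnfsf15*, *Tnfsf18*, *Tnfrsf13c* and *Tnfrsf17*, mostly genes of activated lymphocytes and their partners, and none of them exceeded 15 counts in a library. *Tnfrsf8*, *Tnfrsf23* and *Tnfrsf26* passed through the WT libraries alone, so that a difference in them was favoured by the filter. A gene was called differentially expressed at an adjusted p under 0.05 by edgeR's quasi-likelihood test (adjusted by Benjamini-Hochberg over the whole table) and a fold change of at least 1.5. By that rule 1 member, *Tnfrsf10b*, was called, beside 0.235% of all genes tested (0.124% in the higher direction). At an unadjusted p under 0.05 there were 9 members higher and 3 lower in *LC3b*-/- RPE, 36.4% of those tested, beside 24.1% of all genes (13.5% higher and 10.6% lower). Groups did not overlap for 9 members (27.3%), 7 higher and 2 lower, beside 22.3% of all genes (12% higher and 10.3% lower). The 3 lower members at an unadjusted p under 0.05 were those that passed the filter through WT alone. Both lower members with groups apart, *Tnfrsf23* and *Tnfrsf26*, were among them. The shares of 36.4% and 27.3% thus include members that the filter favoured. Fitted differences were above 0 for 28 of the 33 members (84.8%), beside 51.2% of all genes, and their median was 0.57 on the log2 scale beside 0.01. DESeq2's Wald test, the tool of the study, called 5 of the 37 members that it tested (*Fas*, *Tnfrsf10b*, *Tnfrsf12a*, *Tnfrsf23* and *Tnfrsf26*), beside 9.41% of all genes.

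**Figure D3:**
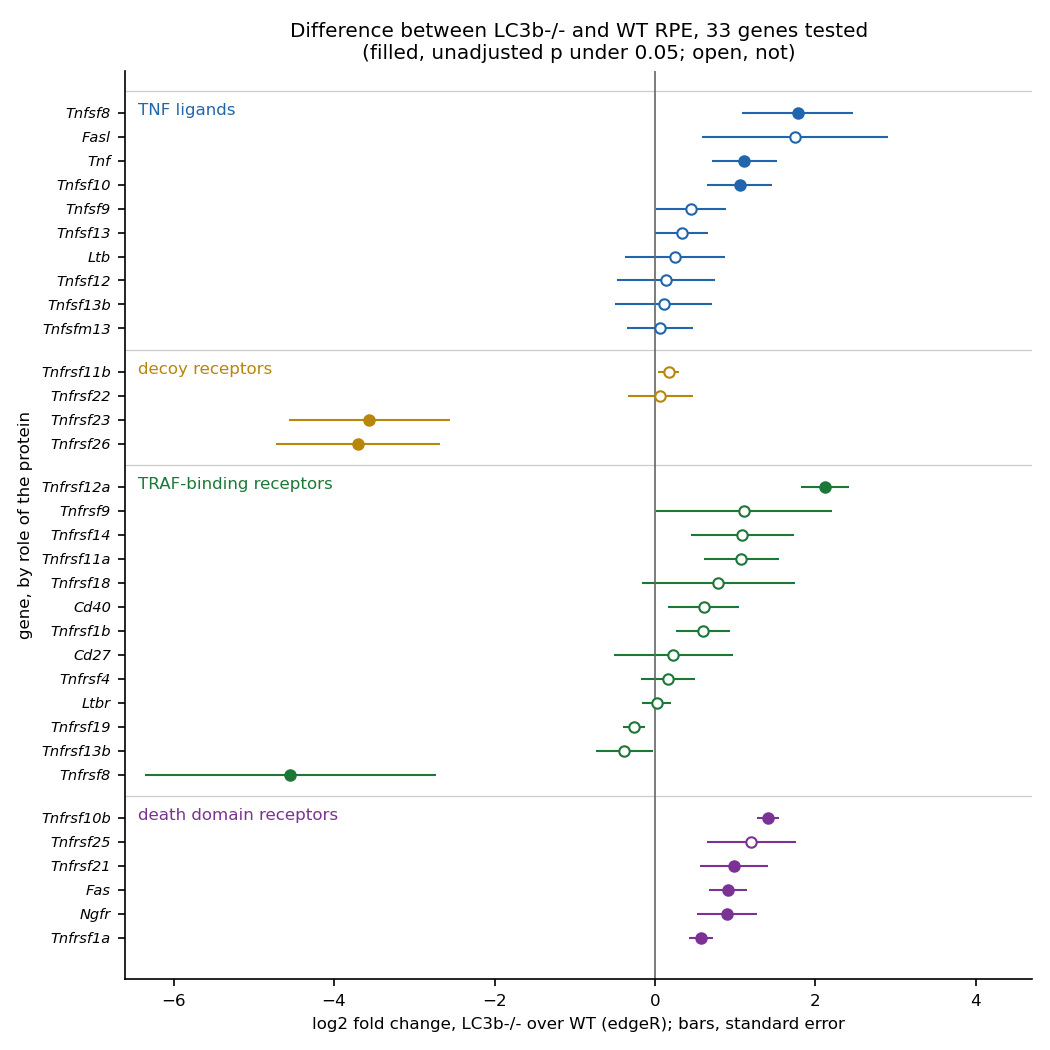
Log2 fold change of *LC3b*-/- over WT with its standard error for the 33 genes tested, grouped by the role of the protein, with filled symbols for an unadjusted p under 0.05 (edgeR). The 6 death domain receptors and the 10 ligands all lie above 0, and *Tnfrsf8*, *Tnfrsf23* and *Tnfrsf26* lie farthest below it. The last 3 passed the filter on low counts through the WT libraries alone.

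All 6 death domain receptors were measured. All 6 had fitted values above 0 (median log2 0.95), beside 51.2% of all genes, 5 had an unadjusted p under 0.05, beside 24.1%, and 3 had groups that did not overlap, beside 22.3%. *Tnfrsf10b* (chr14:70004916-70021860, plus strand) encodes the only mouse TRAIL receptor that carries a death domain. Its level was 17.2, 15.2, 14.1 and 12.9 CPM in the WT libraries (F1, F2, F3, M1) and 35.8, 39.6 and 43.1 CPM in *LC3b*-/- F1, F3 and M. Every *LC3b*-/- library lay well above the highest WT library, and *LC3b*-/- F1 was the lowest of the 3. *Tnfrsf10b* rose from 14.9 ± 1.84 (SD, n = 4) to 39.5 ± 3.63 CPM (SD, n = 3), a log2 fold change of 1.41 with a standard error of 0.14 and an adjusted p of 0.0111 by edgeR. An exact two-sided permutation test on log2 CPM gave p = 0.0286, the smallest that 35 splits allow. *Tnfrsf12a*, *Tnfrsf1a* and *Tnfrsf26* had the same value by this test, and *Tnfrsf26* passed the filter through WT alone. Groups that lie apart do not fix this value, since *Fas*, whose groups also lay apart, had 0.0571 by the permutation test. The call was lost without WT F2 (adjusted p 0.0675), WT F3 (0.0556) or *LC3b*-/- F3 (0.0797) by edgeR, while the log2 fold change stayed between 1.34 and 1.49 over all 7 fits that left out a library. It was lost too with a replicate block from the mouse names (adjusted p 0.117 by edgeR), although same-numbered mice were not taken as pairs.

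*Tnfrsf1a*, whose product signals for TNF through TRADD and RIPK1, had 98.9, 82.2, 77.2 and 83.1 CPM in the WT libraries (F1, F2, F3, M1) and 147, 105 and 129 CPM in *LC3b*-/- F1, F3 and M. The groups did not overlap, although *LC3b*-/- F3 lay close to WT F1. The log2 difference was 0.57 ± 0.15 (SE), with an unadjusted p of 0.00539 and an adjusted p of 0.101 by edgeR. *Fas*, the receptor of Fas ligand, had 11.4, 8.37, 7.75 and 5.61 CPM in WT, against 13.8, 15.7 and 17.2 CPM in *LC3b*-/- libraries in the same order. Here too the groups lay apart, with WT F1 nearest to *LC3b*-/- F1. The difference of 0.91 ± 0.24 (SE) on the log2 scale had an adjusted p of 0.104 by edgeR and of 0.0118 by DESeq2.

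*Tnfrsf21* had 26.4, 32.6, 19.99 and 28.5 CPM in the WT libraries (F1, F2, F3, M1) and 90.8, 46.9 and 22.2 CPM in *LC3b*-/- F1, F3 and M. The mean difference rested on *LC3b*-/- F1, and *LC3b*-/- M lay within the WT range. The ocular surface marker sums were 23506, 6154 and 3308 CPM in these 3 libraries, and their part in the *Tnfrsf21* level was not tested. The log2 difference of 0.99 ± 0.42 (SE; adjusted p 0.207 by edgeR) was 0.36 without *LC3b*-/- F1 and 1.35 without *LC3b*-/- M. *Ngfr*, the low-affinity neurotrophin receptor, had 4.23 to 8.58 CPM in WT and 5.79 to 13.7 CPM in *LC3b*-/- libraries, which overlapped through *LC3b*-/- M (log2 difference 0.89, adjusted p 0.199 by edgeR). *Tnfrsf25*, a death receptor of T cells, was near the limit of detection at 0.249 to 0.907 CPM in WT and 0.805 to 2.10 CPM in *LC3b*-/- libraries, and its difference of 1.20 had an unadjusted p of 0.0639.

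**Figure D4:**
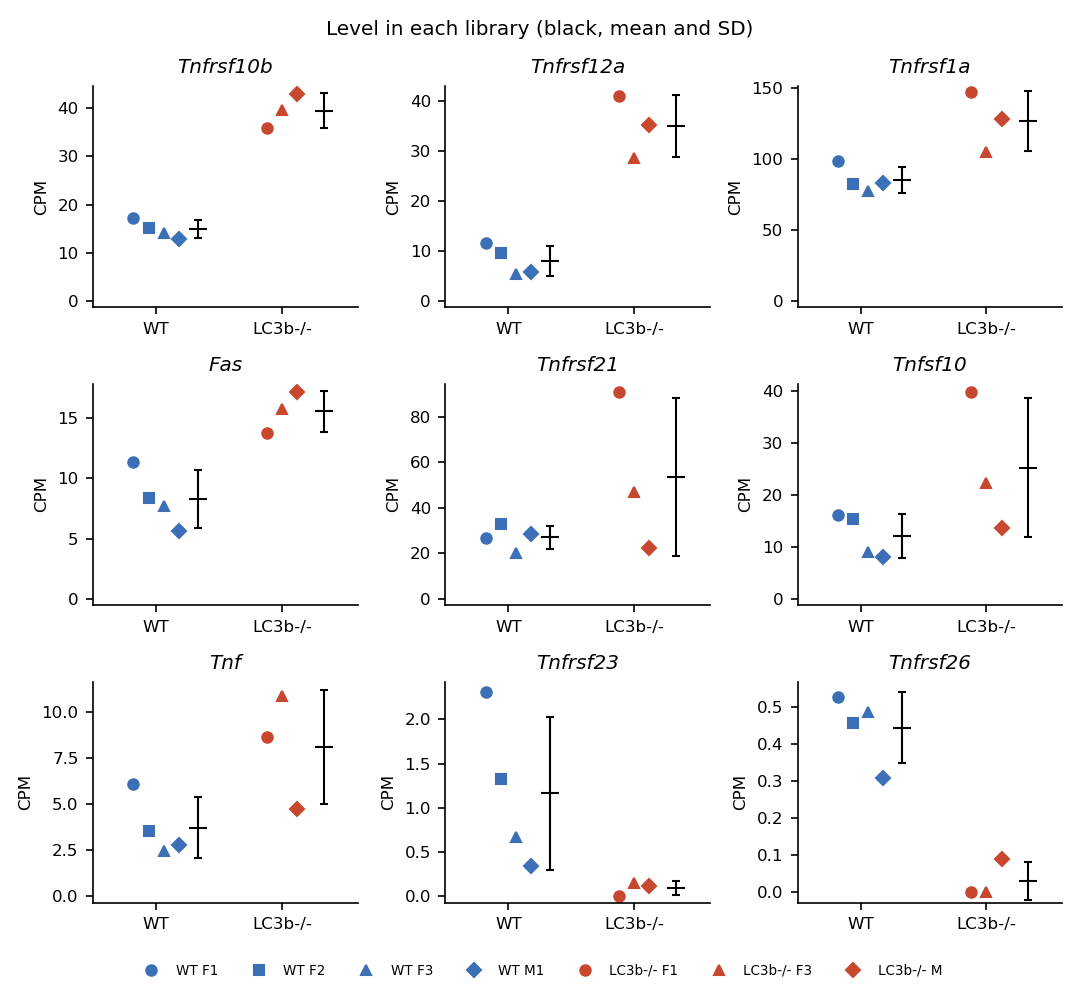
CPM of the named genes in each library, WT in blue and *LC3b*-/- in red, with the mean and SD of each group in black. *Tnfrsf10b* and *Tnfrsf12a* lie higher in every *LC3b*-/- library than in any WT library, *Tnfrsf21* and *Tnfsf10* are highest in *LC3b*-/- F1, and *Tnfrsf23* and *Tnfrsf26* are at or near 0 in the *LC3b*-/- libraries.

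Among the receptors that bind TRAF proteins, 13 of 15 were tested and 10 had fitted values above 0 (median log2 0.60), beside 51.2% of all genes. At an unadjusted p under 0.05 there were 1 higher and 1 lower (15.4%, beside 24.1% of all genes). *Tnfrsf12a* (chr17:23894416-23896468, minus strand), whose product Fn14 is the receptor of TWEAK and is known to be induced by growth factors and injury, had 11.6, 9.57, 5.39 and 5.73 CPM in WT F1, F2, F3 and M1. In *LC3b*-/- F1, F3 and M it had 41.2, 28.6 and 35.2 CPM. The lowest *LC3b*-/- library was thus well above the highest WT library, and the means were 8.07 ± 3.02 (SD, n = 4) and 35.0 ± 6.26 CPM (SD, n = 3). The log2 difference of 2.11 ± 0.30 (SE) had an adjusted p of 0.0531 by edgeR, just outside the threshold. It was within the threshold in 9 of the 16 other fits, and the fitted value lay between 1.95 and 2.34 in all of them. Its ligand gene *Tnfsf12* did not differ beyond the spread of the libraries, as given below.

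*Tnfrsf8*, the gene of CD30, a receptor of activated lymphocytes, had 0.849, 7.002, 2.85 and 0.0384 CPM in the WT libraries (F1, F2, F3, M1) and 0, 0 and 0.325 CPM in *LC3b*-/- F1, F3 and M. The WT libraries spanned 1 to 169 counts and the groups overlapped. The fitted log2 difference of -4.54 had a standard error of 1.81 and an adjusted p of 0.183 by edgeR. *Tnfrsf11a*, the gene of RANK, the receptor that drives osteoclast formation, had 0.674 to 2.37 CPM in WT and 2.45 to 4.69 CPM in *LC3b*-/- libraries, and *Tnfrsf14*, the receptor of LIGHT, had 0.1498 to 1.05 and 1.09 to 2.42 CPM. Both sets of libraries were apart, by narrow gaps, with unadjusted p-values of 0.0513 and 0.128. *Tnfrsf1b*, which binds TNF and is prominent in immune and endothelial cells, had 12.03 to 30.8 CPM in WT and 25.2 to 37.6 CPM in *LC3b*-/- libraries, a log2 difference of 0.60 with an adjusted p of 0.316 by edgeR. *Cd40*, the receptor through which T cells activate antigen-presenting cells, had 0.923 to 2.63 and 1.85 to 3.01 CPM. *Tnfrsf9*, a costimulatory receptor of T cells, had at most 24 counts in a library, and its log2 difference of 1.11 had a standard error of 1.10.

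*Ltbr* had 51.0, 47.3, 61.8 and 68.1 CPM in WT, against 61.0, 46.5 and 66.1 CPM in *LC3b*-/- libraries. The groups covered the same range, and the log2 difference was 0.02 ± 0.18 (SE), with the opposite sign under DESeq2's size factors. *Tnfrsf19*, a receptor known from epithelial progenitor cells and the nervous system, had 25.0 to 30.9 CPM in WT and 20.7 to 26.6 CPM in *LC3b*-/- libraries (log2 difference -0.26, adjusted p 0.291 by edgeR). *Tnfrsf13b*, the receptor TACI of B cells, had a difference of -0.38 (1.76 to 2.20 CPM in WT and 1.01 to 2.30 CPM in *LC3b*-/-). The remaining tested receptors of this group, *Cd27*, *Tnfrsf4* and *Tnfrsf18*, costimulatory receptors of T cells, stayed at or below 1.13 CPM in every library, with log2 differences of 0.23, 0.16 and 0.79 and overlapping groups.

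The decoy and related receptors split into a pair without a difference beyond the spread and a pair with lower levels in every *LC3b*-/- library. *Tnfrsf22* and *Tnfrsf23* encode receptors that bind TRAIL and have no death domain, and lie beside *Tnfrsf26* on chromosome 7, all on the minus strand. Over 461 aligned bases of their coding sequences *Tnfrsf22* and *Tnfrsf23* were 91.8% identical, with 38 mismatches and 0 gaps, while *Tnfrsf26* could not be aligned with either. The first 90 aligned bases are shown because reads are divided between the pair by such differences. They are bases 77 to 166 of the *Tnfrsf22* coding sequence and bases 47 to 136 of that of *Tnfrsf23*, with the 12 bases that differ in capitals.
Tnfrsf22: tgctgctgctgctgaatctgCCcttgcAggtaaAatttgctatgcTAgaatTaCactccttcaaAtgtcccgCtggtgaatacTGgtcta
Tnfrsf23: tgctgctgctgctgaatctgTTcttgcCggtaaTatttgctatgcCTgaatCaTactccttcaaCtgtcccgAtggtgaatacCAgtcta

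Of the stretches of 100 bases in *Tnfrsf23* transcripts, the length of a read, 8.03% also occurred in *Tnfrsf22*, and 11.8% of those in *Tnfrsf22* occurred in other genes, so that the counts of both were partly estimated. *Tnfrsf23* (chr7:143219546-143239611) had 79, 32, 18 and 9 counts in WT F1, F2, F3 and M1, that is 2.31, 1.33, 0.674 and 0.346 CPM, against 0, 6 and 4 counts in *LC3b*-/- F1, F3 and M. The highest *LC3b*-/- library, at 0.1505 CPM, lay below the lowest WT library. The fitted log2 difference of -3.56 ± 1.00 (SE) had an unadjusted p of 0.00767 and an adjusted p of 0.108 by edgeR. *Tnfrsf26* (chr7:143161396-143182459), a related receptor gene whose transcripts shared no such stretch with another gene, had 18, 11, 13 and 8 counts in WT and 0, 0 and 3 counts in *LC3b*-/- libraries. The sums of 50 and 3 counts gave a ratio of WT over *LC3b*-/- of 14.8, with an exact 95% interval of 4.78 to 74.2. The interval pools the mice of a group and covers counting error only, and since *Tnfrsf26*, like *Tnfrsf23*, passed the filter through WT alone, these values are a description. By edgeR its adjusted p was 0.103. *Tnfrsf22* had 28 to 113 counts in WT and 52 to 83 counts in *LC3b*-/- libraries, with a log2 difference of 0.07 ± 0.40 (SE).

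With the counts of *Tnfrsf22*, *Tnfrsf23* and *Tnfrsf26* summed, an alternative chosen after seeing the data, the level was 3.51 ± 1.78 CPM (SD, n = 4) in WT and 2.12 ± 0.0998 CPM (SD, n = 3) in *LC3b*-/- RPE, and the log2 difference of -0.73 had an adjusted p of 0.296 by edgeR. Within 500 kb on either side, 11 other protein-coding genes were tested and 0 were called, beside 0.235% of all genes. *Tnfrsf23* and *Tnfrsf26* were not called by edgeR either. Among the 11 neighbours, 3 had an unadjusted p under 0.05, beside 24.1% of all genes. Their log2 differences lay between -0.84 and 1.83 for all 11 (median 0.13). The neighbour with the largest log2 difference was *Phlda2*, an imprinted gene with a role in placental growth, whose groups lay apart in the higher direction. *Tnfrsf11b*, the gene of osteoprotegerin, had 14.4 to 17.7 CPM in WT and 16.3 to 19.3 CPM in *LC3b*-/- libraries, the most even level of the 4 decoy and related receptors, with a log2 difference of 0.17 ± 0.13 (SE).

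**Figure D5:**
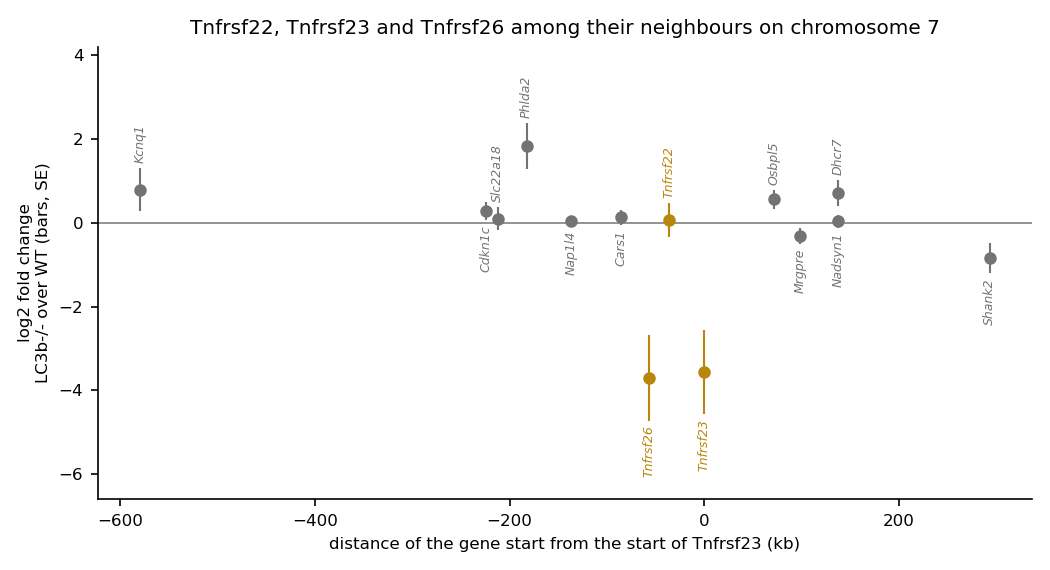
Log2 fold change with its standard error against the distance of each gene's start from that of *Tnfrsf23* (kb) for the tested genes of the chromosome 7 neighbourhood, with *Tnfrsf22*, *Tnfrsf23* and *Tnfrsf26* in gold. *Tnfrsf23* (-3.56) and *Tnfrsf26* (-3.70) lie below all the others, which run from -0.84 to 1.83, and *Tnfrsf22* between them lies near 0. Both low genes passed the filter on low counts through the WT libraries alone, so their place below the neighbours is a description.

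Of the 17 ligand genes 10 were tested, all with fitted values above 0 (median log2 0.39), beside 51.2% of all genes. The signs of *Tnfsf12*, *Tnfsfm13*, *Tnfsf13b* and *Ltb* turned in some other fits. Those of *Tnfsf12*, *Tnfsf13* and *Tnfsfm13* are not separate observations, as their transcripts share sequence. Of the ligand genes tested, 3 had an unadjusted p under 0.05 (30%, beside 24.1% of all genes). *Tnf* had 6.09, 3.56, 2.47 and 2.81 CPM in the WT libraries (F1, F2, F3, M1) and 8.66, 10.9 and 4.76 CPM in *LC3b*-/- F1, F3 and M. *LC3b*-/- M lay below WT F1, so the groups overlapped, and the log2 difference of 1.11 ± 0.40 (SE) had an adjusted p of 0.160 by edgeR. *Tnfsf10*, the gene of TRAIL, the ligand of the *Tnfrsf10b* product, had 16.1, 15.4, 8.99 and 8.03 CPM in WT, against 39.9, 22.3 and 13.6 CPM in *LC3b*-/- libraries in the same order. As with *Tnfrsf21*, *LC3b*-/- F1 was the highest library and *LC3b*-/- M fell within the WT range. The log2 difference of 1.06 ± 0.40 (SE; adjusted p 0.175 by edgeR) was 0.56 without *LC3b*-/- F1. *Tnfsf8*, the gene of the CD30 ligand, had 14, 7, 1 and 6 counts in WT and 11, 42 and 35 counts in *LC3b*-/- libraries. Scaled to library size these groups lay apart, but WT F1 (0.410 CPM) and *LC3b*-/- F1 (0.443 CPM) were nearly equal, and the log2 difference of 1.78 ± 0.69 (SE) had an adjusted p of 0.178 by edgeR. *Fasl* had 17, 4, 1 and 2 counts in WT and 22, 1 and 39 counts in *LC3b*-/- libraries, too scattered for a difference to be detected at this depth (log2 1.75 ± 1.157, SE). *Tnfsf9*, a costimulatory ligand, had 63 to 248 counts in WT and 134 to 237 counts in *LC3b*-/- libraries (log2 difference 0.45, adjusted p 0.557 by edgeR).

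The TWEAK and APRIL genes *Tnfsf12* and *Tnfsf13* lie next to each other on the minus strand of chromosome 11, and *Tnfsfm13* spans both. Stretches of 100 bases shared with another gene made up 42.9% of *Tnfsf12*, 57.7% of *Tnfsf13* and 84% of *Tnfsfm13*, so the division of reads among them is uncertain. *Tnfsf12* had 24.6, 48.5, 22.2 and 5.46 CPM in WT, against 17.3, 31.7 and 33.9 CPM in *LC3b*-/- libraries. *Tnfsf13* had 10.7, 25.6, 20.7 and 11.3 CPM in WT, against 24.2, 23.3 and 16.95 CPM in *LC3b*-/- libraries. Neither separated the groups, and the log2 differences were 0.14 for *Tnfsf12*, 0.33 for *Tnfsf13* and 0.06 for *Tnfsfm13*. Their sum, formed after seeing the data, was 56.2 ± 30.3 CPM (SD, n = 4) in WT and 63.8 ± 9.76 CPM (SD, n = 3) in *LC3b*-/- RPE, a log2 difference of 0.18 ± 0.41 (SE). *Tnfsf13b*, the B-cell survival factor BAFF, and *Ltb*, the membrane-bound partner of lymphotoxin alpha, stayed below 2 CPM in all libraries, with log2 differences of 0.11 and 0.25.

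The values of ligands and their receptors are set side by side here. For TRAIL the log2 difference was 1.06 for the ligand, 1.41 for *Tnfrsf10b*, 0.07 for *Tnfrsf22* and -3.56 for *Tnfrsf23*, which passed the filter through WT alone. For TNF it was 1.11 for the ligand, 0.57 for *Tnfrsf1a* and 0.60 for *Tnfrsf1b*. TWEAK had 0.14 for the ligand and 2.11 for *Tnfrsf12a*, and CD30 had 1.78 for the ligand. The CD30 receptor gene *Tnfrsf8* is not set beside it as a value, since it passed the filter through WT alone and its fitted value ran from -9.29 to -3.99 with a library left out. RANK ligand (*Tnfsf11*) had at most 14 counts in a library and was not tested, whereas its receptor *Tnfrsf11a* and its decoy *Tnfrsf11b* had differences of 1.08 and 0.17. Likewise *Cd40lg*, with 15 counts in WT F1 and at most 1 elsewhere, and *Tnfsf14* and *Tnfsf15*, with at most 9 and 13 counts, had too few counts beside their receptors *Cd40*, *Tnfrsf14* and *Tnfrsf25*. *Tnfrsf13c* and *Tnfrsf17*, receptors of BAFF and APRIL on B and plasma cells, had at most 13 and 3 counts, and *Lta*, *Tnfsf4* and *Tnfsf18* at most 7, 6 and 6.

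Several members are neighbours in the genome. *Ltb*, *Tnf* and *Lta* lie together between chr17:35413382 and chr17:35424327, and *Tnf* was the only one of these at more than 2 CPM. *Cd27*, *Ltbr* and *Tnfrsf1a* lie between chr6:125209585 and chr6:125339632, and *Ltbr* and *Tnfrsf1a* were the most abundant members while *Cd27* stayed below 0.6 CPM. Chromosome 4 carries *Tnfsf8* and *Tnfsf15* as well as *Tnfrsf1b*, *Tnfrsf4*, *Tnfrsf8*, *Tnfrsf9*, *Tnfrsf14*, *Tnfrsf18* and *Tnfrsf25*. Among these, *Tnfrsf1b* and *Tnfrsf8* lie close to each other. The log2 difference was 0.60 for *Tnfrsf1b*, and *Tnfrsf8* is not set beside it, since it passed the filter through WT alone.

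Genes that act with these families were counted from lists made for the purpose, to be read beside all genes tested, of which 51.2% were above 0, 13.5% higher and 10.6% lower at an unadjusted p under 0.05. Of 33 adaptor and signalling genes 24 had fitted values above 0 (median log2 0.41), 12 (36.4%, beside 24.1% of all genes) had an unadjusted p under 0.05, all higher, and 0 were called by edgeR. Those with the smallest p were *Bid*, which links caspase-8 to mitochondria (2.72 ± 0.297 CPM in WT and 7.51 ± 2.44 CPM in *LC3b*-/-, mean ± SD), *Tnip2* and *Tnip1*, partners of the NF-kB inhibitor A20 (log2 1.11 and 0.62), *Ripk1*, the kinase at the TNF receptor (0.74), and *Traf4* (1.13). Their adjusted p-values by edgeR lay between 0.0834 and 0.116. Of 11 NF-kB core genes 9 were above 0 (median log2 0.71), 7 (63.6%, beside 24.1%) had an unadjusted p under 0.05, all higher, and 0 were called. *Nfkb2* had 20.7 ± 7.29 CPM in WT, against 43.4 ± 6.48 CPM in *LC3b*-/- RPE, *Nfkb1* 30.6 ± 9.37 and 56.2 ± 7.59 CPM, and *Rel* 11.5 ± 6.18 and 46.9 ± 31.6 CPM (SD, n = 4 and n = 3). *Relb* (log2 0.73) and the kinase gene *Ikbkb* (0.36) completed the 5 smallest p-values.

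Of 24 genes known to be induced by TNF and NF-kB 23 were tested, 19 were above 0 (median log2 0.54), 5 were higher and 1 lower at an unadjusted p under 0.05 (26.1%, close to the 24.1% of all genes), and 0 were called. *Bcl3*, a nuclear NF-kB regulator, had 13.3 ± 6.71 CPM in WT, against 55.1 ± 22.1 CPM in *LC3b*-/- RPE (mean ± SD), and *Lcn2*, an iron-binding acute phase protein, 4.86 ± 1.27 and 39.4 ± 36.4 CPM. *Sele*, the endothelial adhesion molecule E-selectin, had 65.4 ± 19.5 and 127 ± 29.4 CPM, beside endothelial markers that were higher too. *Tnfaip8* and *Ier3* had log2 differences of 0.84 and 0.85, and *Saa3*, an acute phase protein, had -1.21. Of 5 genes for ligand shedding, 4 (80%, beside 24.1%) had an unadjusted p under 0.05, all higher, namely *Adam17*, the protease that releases TNF (log2 0.70), its partners *Rhbdf1* (0.94) and *Rhbdf2* (1.34), and *Adam10* (0.33), and the protease inhibitor *Timp3* had -0.56. Of 5 superfamily genes with other symbols 4 were tested and all were above 0, with 2 (50%, beside 24.1%), *Eda2r*, a receptor of ectodysplasin (1.32), and *Edar*, the other such receptor (1.76), at an unadjusted p under 0.05. The part of the surface epithelium, endothelial and other marker differences in these lists was not tested.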

How the data were processed

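RPE of 7 mice (4 WT, 3 *LC3b*-/-) was sequenced as single reads of 100 bases, 1 library per mouse. The authors estimated reads per transcript with Salmon against GENCODE transcripts, collapsed these to gene level with tximeta, and deposited the estimated counts as whole numbers without scaling (GRCm39, per the submitters' processing notes). Trimming and Salmon's options are not given in the sources used here. All 7 columns were used (0 unused), and 51721 of 52740 identifiers matched GENCODE vM39, which gave symbols and positions.

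Counts were tested in R 4.3.3 with edgeR 4.0.16 (filterByExpr, TMM, quasi-likelihood F-test, no covariate, Benjamini-Hochberg over 16990 genes). CPM are TMM-scaled. No 2 libraries agreed within sampling noise. The common dispersion was 0.158. Depth was 24495952 to 35616134 counts. At that depth 10 counts are about 0.374 CPM. The mice are separate animals, and the edgeR test sets the group difference against the spread between them, estimated in part from all genes. The alternatives were DESeq2 1.42.0 (the study's tool), limma 3.58.1 voom with sample weights, other scalings, filters and thresholds, sex as a covariate, females only, a replicate block and each library left out. The code was tested on simulated data. Motifs were matched as letters, and coding sequences were aligned with BLAST 2.17.0. Sequences came from GRCm39 with GENCODE vM39. Figures were drawn with matplotlib 3.10.9 in Python 3.11.15.

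The members, the pathway and marker lists and the tests were chosen with earlier results of these data known. Full values are given for members called, those with an unadjusted p under 0.05, the 10 highest per kilobase, the 10 with the largest fold change, and their partners. From each pathway list up to 5 genes in each direction with the smallest unadjusted p under 0.05 were named. The mouse names carry a number whose meaning is not stated. It differs between the genotypes, so it cannot be told apart from genotype. Within *LC3b*-/- it also differs between the females and the male, so there it cannot be told apart from sex. Proteins were not analysed here.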

Additional observations from a re-analysis of the deposited data

How the results depend on the processing

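The number of members called was 1 in the fit reported. It was 2 (*Tnfrsf10b* and *Tnfrsf12a*) with voom, DESeq2's size factors, library size alone, no filter, a minimum of 10 counts in all libraries, a sex term, or an adjusted p under 0.1, and 5 with DESeq2, where 1810 of 19237 genes were called in place of 40 of 16990. With the replicate block from the mouse names 0 members were called (*Tnfrsf10b* at an adjusted p of 0.117 by edgeR), and 1 of all genes was called. Leaving out 1 library gave 0 to 3 members called, beside 0.0633% to 2.76% of all genes. There were 0 without WT F2, WT F3 or *LC3b*-/- F3 and 3 (*Tnfrsf26* added) without *LC3b*-/- M. Calls among all genes numbered 215 when WT F1 was left out and 485 when *LC3b*-/- M was. The cause of these differences was not tested.

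The count of members at an unadjusted p under 0.05 lay between 6 and 12 with a library left out (4 to 12 higher, 0 to 4 lower), and the share of all genes moved with it. It was 6 of 31 members beside 17.5% of all genes without WT F3, and 7 of 31 beside 20.4% without WT F2. Lower ones numbered 0 with at least 10 counts in every library and 1 with the replicate block. Groups did not overlap for 8 to 16 members with a library left out (7 to 13 higher, 0 to 5 lower), 17 in females only (12 higher, 5 lower), and 5 with at least 10 counts in every library (0 lower), as *Tnfrsf23*, *Tnfrsf26*, *Tnfrsf14* and *Tnfsf8* then go untested. With fewer libraries the groups of any gene lie apart more easily. The share of all genes in these fits is not given here, so no result about the members is read from these counts. The median log2 fold change was 0.57 in the fit reported, 0.23 with no filter on low counts, 0.29 in females only and between 0.40 and 0.90 with a library left out. Among the pathway lists, where 0 were called in each, DESeq2 called 3 of 5 shedding, 3 of 11 NF-kB core, 5 of 33 adaptor and signalling and 3 of 24 induced genes listed. These stand beside 9.41% of all genes. Voom called 1 adaptor gene, beside 0.73% of all genes. For the same lists, leaving out a library gave 0 to 1, 0 to 2, 0 to 1 and 0 to 2, beside 0.0633% to 2.76% of all genes.

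The sign turned for 7 uncalled members. *Ltbr* was -0.0056 with DESeq2, -0.073 with voom, -0.0017 with DESeq2's size factors, -0.0049 with sex and -0.065 with the replicate block, and *Tnfrsf22* was -0.014 with the block. In females only, *Cd27* was -0.25, *Ltb* -0.45, *Tnfsf12* -0.37, *Tnfsf13b* -0.42 and *Tnfsfm13* -0.19. With a library left out, *Ltbr* ran from -0.089 to 0.14, *Tnfrsf22* from -0.11 to 0.48, *Cd27* from -0.014 to 0.59, *Ltb* from -0.22 to 0.57, *Tnfsf12* from -0.20 to 0.67, *Tnfsf13b* from -0.19 to 0.64 and *Tnfsfm13* from -0.18 to 0.38. The other 26 tested members kept their sign in every fit that tested them. The mouse numbers were not taken as pairs: deviations of same-numbered libraries correlated at 0.15 (F1), 0.24 (F3) and -0.18 (males) across genes, and 0 of 3 *LC3b*-/- libraries was closest to its own number. A term for genotype by sex rested on 1 male per group, so no result about the members is read from it. Standard errors were widest for members with few counts, such as *Tnfrsf8* (1.81).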
